A study of Mus musculus with 6 samples.

Results

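Cells of an early mouse embryo are held together by adherens junctions, tight junctions and desmosomes, and 9 genes that encode parts of these junctions are described here: Cdh1, Cldn4, Cldn6, Cldn7, Ocln, F11r, Tjp1, Dsp and Dsc2. They were followed through every array probe, control spots aside, that the scanner files name after 1 of the 9 genes. This gave 16 probes of 41174, for 9 gene names of 27745. Cdh1, Cldn4, Cldn6, Cldn7 and F11r had 1 probe each, Tjp1 and Ocln had 2, Dsc2 had 3 and Dsp had 4.

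In epithelia, an adherens junction joins neighbouring cells through cadherins bound to catenins and actin. Tight junctions lie beside it and seal the space between cells through claudins, occludin and junctional adhesion molecules, which are anchored to scaffold proteins inside the cell. Desmosomes join the keratin filaments of neighbouring cells through desmosomal cadherins, plakophilins and desmoplakin. In the mouse embryo, E-cadherin acts at compaction, and the trophectoderm, the outer epithelium of the blastocyst, needs sealed tight junctions to hold a fluid-filled cavity.

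The study, which by its title concerns reprogramming of somatic nuclei in oocytes of declining fertility, measured RNA on 6 single-colour (Cy3) Agilent arrays of B6C3 F1 mouse material. Ooplasts, which are oocytes with the nuclear material removed, gave 1 array from young and 1 from climacteric females, the label of the aged group. Blastocysts gave 2 arrays from young and 2 from climacteric females. Both ooplast arrays and the first blastocyst array of each age were on slide 1, and the second blastocyst arrays were on slide 2. Stage is therefore partly mixed with slide, and the main stage test has no slide term. The labels give no age in days or weeks, no number of cells or animals per array and no word on how the blastocysts were produced, and the design text calls the replicates biological. Whether replicates came from separate females is not stated, so the p-values cover only the spread among these arrays, which may be technical. Total RNA was extracted and amplified before labelling in every group.

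Values are given as levels: the log2 of the processed signal, taken relative to the 75th percentile of its own array, so that a level of 0 is the signal at that percentile and each unit is a factor of 2. Between 42.2% and 57.3% of the 43379 non-control spots per array were well above background, and the signal at the 75th percentile came to 235 and 238 on the ooplast arrays and 721 to 1111 on the blastocyst arrays. The lowest level that counted as well above background was therefore higher on the ooplast arrays (-2.25 and -2.03) than on the blastocyst arrays (-3.97 to -3.45). A probe that fails this mark on both ooplast arrays has only an upper limit there (it is called below background here), and its fold is given as a lower bound, measured from that limit. An adjusted p beside such a bound tests the fitted difference, which uses the ooplast readings below background, and not the bound itself. Against the labels, 10 of 10 tested oocyte markers fell in blastocysts and 8 of 9 trophectoderm markers rose. Of 13 cumulus and granulosa markers, 6 were well above background on each ooplast array, and of 7 tested 1 rose, 3 fell and 3 did not pass. In bulk samples such as these, fewer cells of a type and less RNA per cell cannot be told apart.

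Promoter sequence was at hand for 7 of the 9 genes, from RefSeq on GRCm38.p6, as 9 windows of 250 bases ahead of a transcription start; Cdh1 and Dsc2 are the other two. The windows were searched on both strands for the E box CACCTG, the letters to which Snail and Zeb repressors of epithelial genes are known to bind. This E box was present in 5 of the 9 windows, 1 each of Cldn4, Cldn6, Cldn7, Ocln and F11r, against 17.2% of the 32851 windows of all genes. These 5 genes encode all the membrane proteins of the tight junction among the 9. The other windows of Ocln and Cldn7 had no match, nor had those of Tjp1 and Dsp, whose products lie inside the cell. The membrane cadherins Cdh1 and Dsc2 had no window, and a link between the match and the kind of protein was not tested. Printed here are Cldn4 (chr5:134946935-134947184, minus strand), Cldn6 (chr17:23679115-23679364, plus strand) and F11r (chr1:171437311-171437560, plus strand), which show how differently the match is placed in genes whose RNA rose together. Capitals mark the E box, whose first printed base lies 14, 93 and 122 bases ahead of the start.
Cldn4: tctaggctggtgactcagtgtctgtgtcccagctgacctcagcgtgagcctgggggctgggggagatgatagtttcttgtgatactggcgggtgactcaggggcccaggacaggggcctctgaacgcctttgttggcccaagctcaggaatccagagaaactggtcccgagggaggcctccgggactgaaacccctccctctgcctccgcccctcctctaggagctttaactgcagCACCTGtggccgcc
Cldn6: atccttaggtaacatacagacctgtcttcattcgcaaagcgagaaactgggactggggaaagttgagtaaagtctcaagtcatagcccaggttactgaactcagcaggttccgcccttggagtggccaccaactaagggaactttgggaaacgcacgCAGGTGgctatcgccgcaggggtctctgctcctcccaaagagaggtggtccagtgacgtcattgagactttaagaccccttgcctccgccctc
F11r: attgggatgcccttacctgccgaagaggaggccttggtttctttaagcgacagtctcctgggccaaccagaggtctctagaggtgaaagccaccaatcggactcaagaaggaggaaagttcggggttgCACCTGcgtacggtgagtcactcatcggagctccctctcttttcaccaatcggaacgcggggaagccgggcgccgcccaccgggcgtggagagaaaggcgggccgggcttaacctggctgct

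The GC box GGGCGG, to which Sp1 is known to bind, was found in 8 of the 9 windows, at least 1 for each of the 7 genes, against 32.7% of all windows. The member windows were 51.2% to 72.4% G and C, and the median of all windows was 52.4%. The AP-2 motif GCCNNNGGC occurred in 2 windows (Ocln and Dsp) against 13.7% of all, and the TEAD motif GGAATG in 1 window (Cldn7) against 12.6%. A match describes the letters only, and no measurement of binding was made.

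The first question was how these junction genes differ between ooplast, which holds the RNA stored by the oocyte, and blastocyst, which has formed its first epithelium. By the brightest probe of each gene, 7 of the 9 rose in blastocysts (Cdh1, Cldn4, Cldn6, Cldn7, Ocln, F11r and Dsp), Tjp1 fell, and Dsc2 did not pass the test. Over all 15559 genes tested the same way, 35.4% rose and 38.6% fell, so most genes on the array changed between the stages. The members were chosen with earlier results of these data known, so their count and median beside those of all genes are a description. The median fitted difference of the 9 members was 3.45 on the log2 scale, against -0.25 over all tested genes. With the members below background in ooplasts set at their lower bound it was 2.78, and no such median was computed over all genes. All 9 brightest probes were well above background on all 4 blastocyst arrays, but 4 of them (Ocln, Cldn4, Cldn6 and Dsp) were so on neither ooplast array and passed the filter through blastocysts alone, so the count of rises is a description. Among the other 5, which were measured on all 6 arrays, Cdh1, F11r and Cldn7 rose, Tjp1 fell and Dsc2 was not called.

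**Figure D1:**
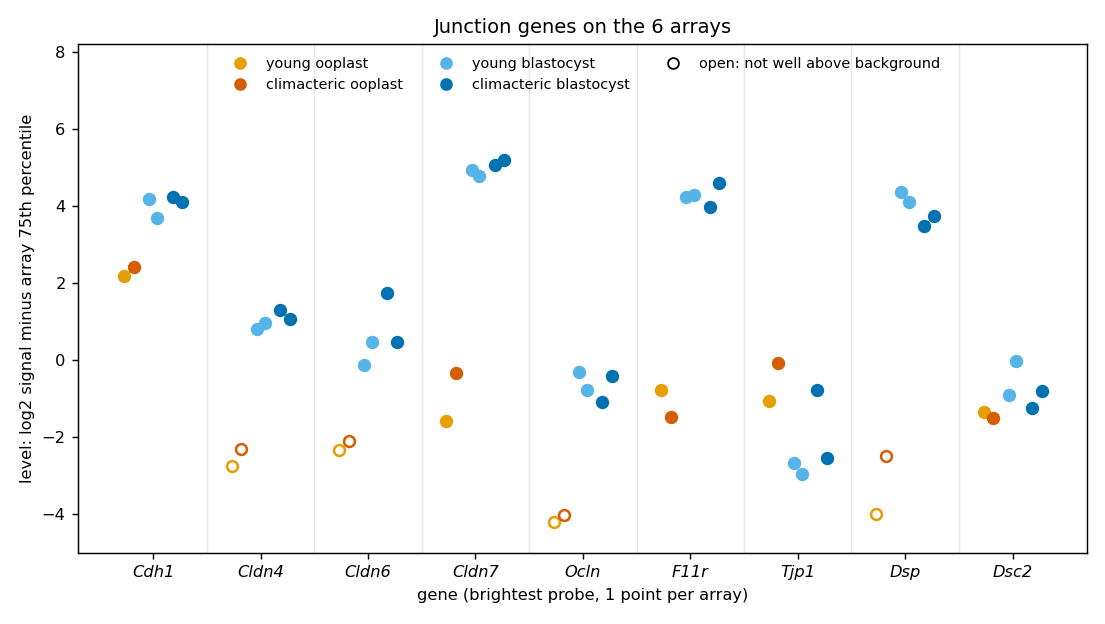
Level of each of the 9 junction genes by its brightest probe, with 1 point per array (y axis, log2 level relative to the 75th percentile of its array), coloured by group and open where the probe was not well above background. Blastocyst points lie above both ooplast points in every gene but Tjp1, whose groups overlap, and for Dsc2 the nearest points are -1.25 and -1.34.

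Cdh1 encodes E-cadherin, the cadherin of epithelial adherens junctions. Its level was 2.18 in young and 2.42 in climacteric ooplasts, 4.19 and 3.67 in young blastocysts, and 4.23 and 4.10 in climacteric blastocysts (replicates 1 and 2 in that order, here and below). Every blastocyst array lay above both ooplast arrays. The rise was 3.37-fold (log2 1.75 ± 0.27, SE; limma adjusted p = 0.00135). The probe (A_51_P137336, at chr8:109559041-109559100 on mm8) is spotted 10 times on each array, which gives the noise between spots. The SD of the log2 signal between its spots was 0.036 to 0.13 within an array. The lowest was that of the first climacteric blastocyst array, where 8 spots were used after outliers were dropped. Between the 4 blastocyst arrays of both ages the SD was 0.26. The SD between spots covers spot noise alone and leaves out amplification, labelling and hybridization.

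The 3 claudins, which form the strands of the tight junction, all rose. Cldn7 (A_51_P165185, chr11:69783473-69783782) stood at -1.59 in young and -0.33 in climacteric ooplasts, at 4.93 and 4.77 in young blastocysts, and at 5.06 and 5.19 in climacteric blastocysts. It was well above background everywhere and was 61.6-fold higher in blastocysts (log2 5.94 ± 0.31; adjusted p = 1.76e-05), with over 5 log2 units between the highest ooplast and the lowest blastocyst array.

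Cldn4 (A_51_P356467, chr5:135230104-135230163), whose product is also a receptor of a clostridial enterotoxin, was not well above background in ooplasts (-2.74 and -2.31). In blastocysts its level was 0.79 and 0.97 (young) and 1.30 and 1.06 (climacteric), with an SD of 0.21 over the 4 arrays. It was at least 9.02-fold higher there (adjusted p of the fitted difference = 4.31e-05), or at least 4.33-fold under normexp background correction.

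Cldn6 (A_51_P423743, chr17:23409682-23409741), a claudin of embryonic epithelia, was likewise below background in ooplasts (-2.32 and -2.09). It was -0.13 and 0.47 in young blastocysts and 1.75 and 0.47 in climacteric blastocysts, so that 1 climacteric array stood apart from the other 3. It was at least 6.86-fold higher in blastocysts (adjusted p of the fitted difference = 0.00131), or at least 3.38-fold under normexp correction. Without that array the fitted difference kept its side of the threshold.

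Ocln encodes occludin, a membrane protein of tight junction strands. Its 3′ probe (A_51_P486150, chr13:101598416-101598475) read -4.19 and -4.02 in ooplasts, below background, -0.31 and -0.79 in young blastocysts, and -1.08 and -0.42 in climacteric blastocysts. The blastocyst arrays were all above the ooplast arrays, by at least 2.81-fold (adjusted p of the fitted difference = 0.000126). Under normexp background correction the bound was 1.35-fold and the fitted difference was 0.88.

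F11r encodes JAM-A, a junctional adhesion molecule that recruits polarity proteins. Its probe (A_51_P458866, chr1:173300392-173300451) read -0.78 and -1.49 in ooplasts, 4.22 and 4.27 in young blastocysts, and 3.97 and 4.60 in climacteric blastocysts. Measured on every array, it was 42.2-fold higher in blastocysts (log2 5.40 ± 0.32; adjusted p = 2.38e-05).

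Tjp1, which encodes the scaffold ZO-1, had 2 probes that moved in opposite directions. The brighter (A_52_P60338, chr7:65192218-65192277) lay at -1.05 and -0.065 in ooplasts, at -2.67 and -2.94 in young blastocysts, and at -0.78 and -2.54 in climacteric blastocysts. The first climacteric blastocyst array lay between both ooplast arrays, so the groups overlapped, and the fitted fall was 3.19-fold (log2 -1.67 ± 0.50; adjusted p = 0.0206). This call was lost without the young ooplast array (adjusted p = 0.114), without the climacteric ooplast array (0.0958), with slide as a block (0.0601), within slide 1 (0.0683) and on the climacteric arrays alone (0.139), and its adjusted p ranged from 0.00335 to 0.139 over 19 settings.

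The other Tjp1 probe (A_51_P390739, chr7:65175767-65175826) lies 16451 bases nearer the 3′ end of the gene and was not well above background in ooplasts (-2.12 and -2.59). It read -1.41 and -1.22 in young and -1.77 and -1.64 in climacteric blastocysts, all above both ooplast arrays. The rise was at least 1.48-fold (adjusted p of the fitted difference = 0.0205). That call was lost in 11 of 17 settings, among them each left-out array but the first of each blastocyst group, and normexp background correction, where the difference turned to -0.10, with adjusted p values from 0.00583 to 0.667. These data thus give Tjp1 no single direction.

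Dsp encodes desmoplakin, which ties the desmosome to keratin filaments. Its 3′ probe (A_51_P101460, chr13:38205718-38205777) read -3.99 and -2.48 in ooplasts, neither well above background, 4.35 and 4.11 in young blastocysts, and 3.47 and 3.75 in climacteric blastocysts. It was at least 66.6-fold higher in blastocysts (adjusted p of the fitted difference = 3.91e-05), or at least 29.7-fold under normexp correction.

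Dsc2 encodes desmocollin 2, a desmosomal cadherin. The brightest of its 3 probes (A_51_P158037, chr18:20175544-20176129) was well above background on all 6 arrays, at -1.34 and -1.51 in ooplasts, -0.91 and -0.028 in young blastocysts, and -1.25 and -0.79 in climacteric blastocysts. The groups did not overlap, though the nearest arrays of each lay at -1.34 and -1.25, and the difference of 0.68 (95% interval -0.16 to 1.52; adjusted p = 0.120) did not pass. On the authors' deposited values it did pass (0.91, adjusted p = 0.0493), and its adjusted p ranged up to 0.476 over the settings tried.

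**Figure D2:**
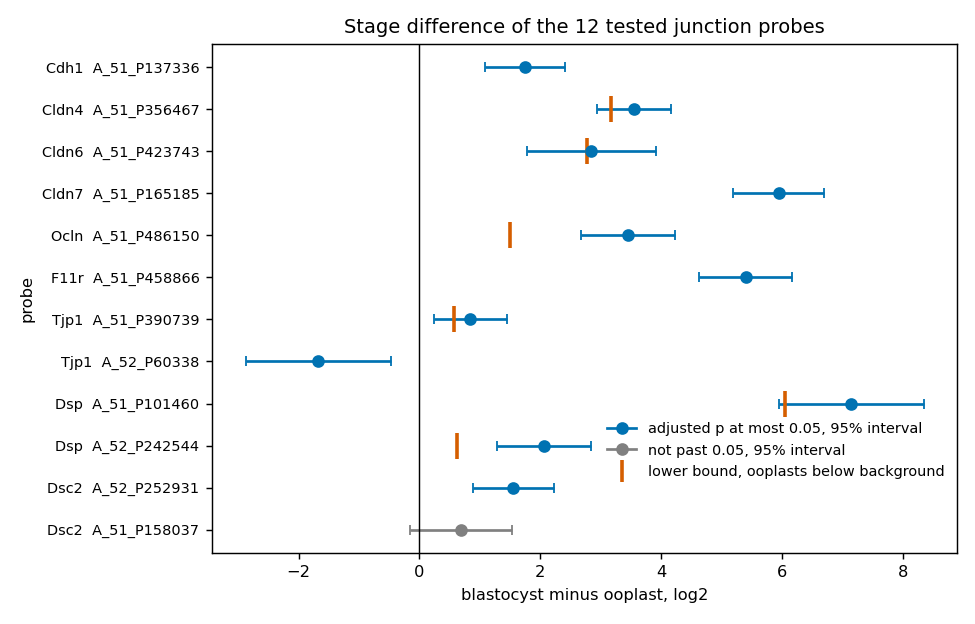
Fitted difference between blastocysts and ooplasts (x axis, log2) for each of the 12 tested probes, with its 95% interval, and an orange bar at the lower bound for probes below background in ooplasts. The interval of Dsc2 A_51_P158037 is the only one to span 0, and Tjp1 A_52_P60338 is the only probe with a negative difference.

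At the level of probes, 12 of the 16 passed the filter, of which 10 rose, 1 fell and 1 was not called. Over all 20982 tested probes, 35.6% rose and 38.2% fell. In 11 of the 12 tested probes every blastocyst array lay above both ooplast arrays, against 37.3% of all tested probes, though 7 of the 12 were below background in ooplasts. Of the 4 probes that were not tested, 2 (1 of Ocln, 1 of Dsp) were well above background on no array.

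The probes of a gene often differed in what they detected, and in Tjp1, Ocln and Dsc2 the 3′-most probe was the only one called higher. The second Ocln probe (A_52_P608097, chr13:101640151-101641344) lies 41735 bases upstream of the first, and it was below background on all 6 arrays, with -3.69 and -3.42 in ooplasts and -5.57 to -5.07 in blastocysts.

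In Dsp, moving upstream by 387 bases (A_52_P242544, chr13:38205331-38205390) gave -3.83 and -3.33 in ooplasts, below background, and -1.81, -1.39, -1.09 and -1.80 in young 1, young 2, climacteric 1 and climacteric 2 blastocysts. The rise was at least 1.54-fold (adjusted p of the fitted difference = 0.00134). That call was lost under normexp correction (0.25, adjusted p = 0.365, range over the settings 0.000653 to 0.365). At 2463 bases upstream (A_52_P549815) only the second young and the second climacteric blastocyst arrays, both on slide 2, were above background (-2.71 and -1.86), while the others read -4.90 and -4.30. At 3601 bases (A_51_P201884) no array was above background.

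The 3′-most Dsc2 probe (A_52_P252931, chr18:20174846-20174905) was below background in ooplasts (-4.25 and -4.15) and read -2.52 and -2.55 in young and -3.00 and -2.49 in climacteric blastocysts. The fit called it higher (log2 1.56, adjusted p = 0.00250). These blastocyst levels lie below the lowest level that counts as above background on the ooplast arrays, so no fold is given, and under normexp correction the difference turned to -0.14 (adjusted p = 0.601, range from 0.000262). The third Dsc2 probe (A_52_P157158, 323 bases upstream) was above background on 3 of the 4 blastocyst arrays (-3.10, -2.63 and -1.93, but not -3.60 in the second climacteric array) and on no ooplast array.

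**Figure D3:**
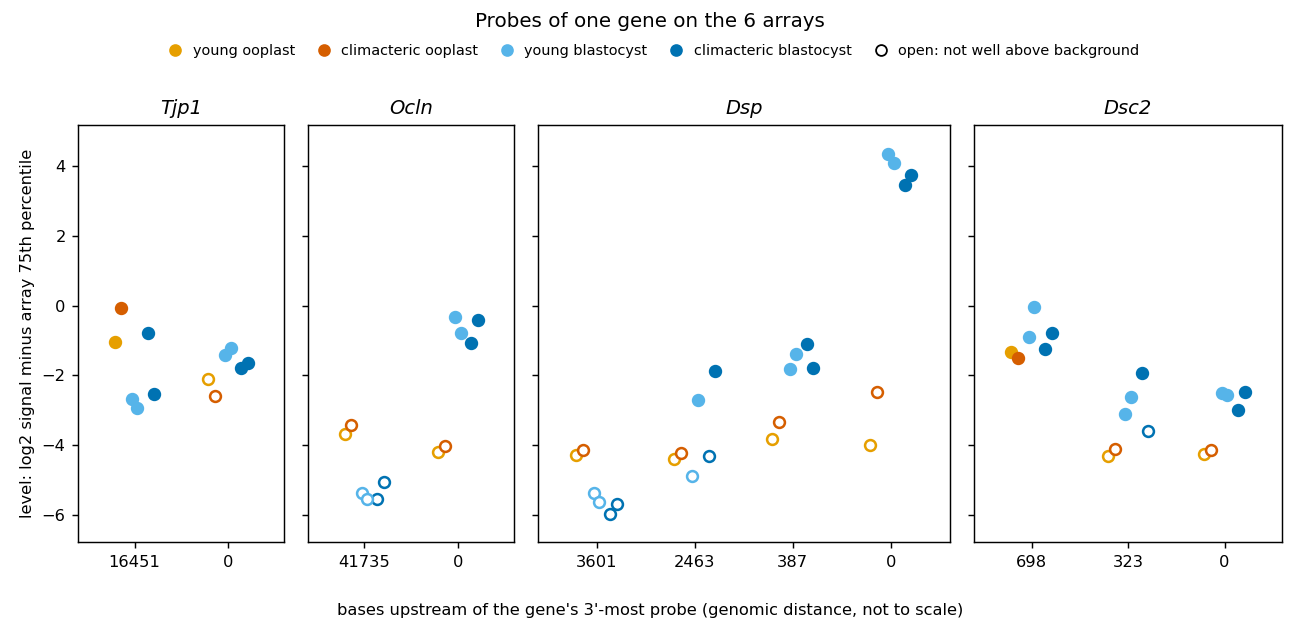
Level on each array (y axis, log2 level relative to the 75th percentile of its array) of every probe of Tjp1, Ocln, Dsp and Dsc2, ordered by genomic distance in bases from the gene's 3′-most probe (0). Filled points are well above background. In Dsp the blastocyst level was 3.47 to 4.35 at the 3′ end and -1.81 to -1.09 at 387 bases upstream.

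The second question was whether climacteric and young females differ. In blastocysts, limma called 0 of the 13 tested member probes, and 0% of all 21648 tested probes were called. At an unadjusted p under 0.05 it found 1213 of all probes and 0 of the members, whose smallest was 0.0968, and the adjusted p of every member probe was 0.99991. With 2 arrays a group the intervals are wide. Among the brightest probes they were narrowest for Cldn7 (0.27, from -0.47 to 1.01), Cldn4 (0.30, from -0.46 to 1.06) and Dsp (-0.62, from -1.41 to 0.16), and widest for Tjp1 (1.15, from -0.43 to 2.72) and Cldn6 (0.93, from -0.39 to 2.26).

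The arrays of the age groups did not overlap for 4 of the 9 brightest probes: Cldn4, Cldn7 and Tjp1 were higher on both climacteric arrays and Dsp was lower on both. Over all tested probes, 30.7% did not overlap, 16.7% with the climacteric arrays higher and 14% lower. The members' 4 of 9 are described against that share, and none passed the test. The second Tjp1 probe did not overlap either, but with the climacteric arrays lower (-0.39, from -1.14 to 0.35), opposite to the brighter Tjp1 probe.

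Each slide held 1 young and 1 climacteric blastocyst array, so the age difference can be read within slides. Dsp was lower in climacteric blastocysts on both slides (-0.89 and -0.36), and Cldn7 (0.13 and 0.41) and Cldn4 (0.51 and 0.092) were higher on both. For Cldn6 the difference was 1.87 on slide 1 and -0.0050 on slide 2, and for Tjp1 A_52_P60338 it was 1.89 and 0.41, so both rest on slide 1. The slide 1 climacteric blastocyst array also carried macrophage marker signal: the log2 of the summed level of 15 such markers was 5.28 there against 1.83 to 1.91 on the other blastocyst arrays, 9 of the 15 were well above background against 5 to 8, and Lyz2, at 5.07 against -6.02 to -3.77, made up most of it. Among the other markers, Tyrobp read -1.90 there against -4.84 to -4.50 on the other blastocyst arrays, and Fcer1g 1.01 against 0.043 to 0.33. Cd68 read 0.30 against -0.51 to -0.37, and C1qb -0.70 against -0.98 to -0.82. Csf1r (-1.20), Cd14 (-1.11), C1qc (-2.96) and Laptm5 (-3.27) each read lower there than on another blastocyst array. Adgre1 and Aif1 were above background on no blastocyst array. Itgam, Mrc1 and C1qa were not above background on any array, and Ptprc was so on neither climacteric array of slide 1. The part of this signal in the Cldn6 and Tjp1 values was not tested. Ocln, F11r and Cdh1 had differences from -0.76 to 0.42 on the slides, with opposite signs on the slides for Ocln and F11r, and Dsc2 was lower on both (-0.34 and -0.76).

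**Figure D4:**
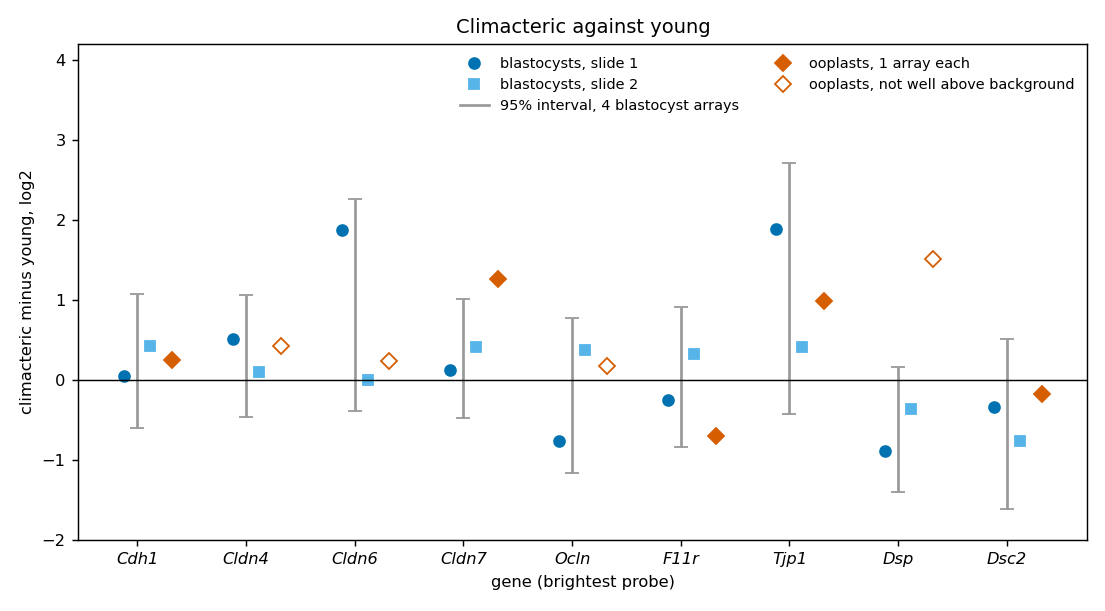
Climacteric minus young (y axis, log2) for the brightest probe of each gene, within each slide of blastocysts, with the 95% interval of the 4 blastocyst arrays in grey, and between the single ooplast arrays, open where a probe was not well above background on both. Every grey interval spans 0, and the slide 1 points of Cldn6 (1.87) and Tjp1 (1.89) stand far from their slide 2 points.

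In ooplasts there is 1 array per age, so the difference has no replicate check and no test. Of the 5 members well above background on both ooplast arrays, Cldn7 was 2.39-fold higher in the climacteric array, the only one at least 2-fold apart, and 17.3% of the 15516 probes measured on both arrays were as far apart, 7.39% with the climacteric array higher. Tjp1 (A_52_P60338) was 1.98-fold higher, F11r 1.63-fold lower, Cdh1 1.18-fold higher and Dsc2 1.13-fold lower. The climacteric ooplast array also held the higher macrophage signal of the pair (log2 of the sum 5.42 against 2.12, with 10 of 15 markers against 5 above background). Lyz2 read 3.94 there against -4.48, Fcer1g 3.84 against 0.28 and C1qc 2.19 against -4.40. Adgre1 read 0.89 against -2.78, Tyrobp 0.38 against -3.17 and Aif1 -0.53 against -3.52, while C1qb was lower there (-0.17 against 0.066). Ptprc, Itgam, Mrc1, C1qa and Laptm5 were below background on both. The part of the macrophage signal in the member values was not tested.

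Whether the stage difference itself depended on age was tested by an interaction, for which the spread comes from the blastocyst replicates alone. In limma 0 of the 12 member probes passed, against 0.672% of all tested probes, and 1, the 3′ Dsp probe, had an unadjusted p under 0.05 (0.00892, adjusted p = 0.322), of a difference that includes the ooplast readings of -3.99 and -2.48 below background. Without both arrays that carried the macrophage signal, a setting added after seeing the data, the counts of member probes that rose and fell were 9 and 1, and the rise was lost for the 3′ Tjp1 probe (adjusted p = 0.159). The rises of Cdh1, Cldn7 and F11r by the brightest probe passed under all 19 settings. Those of Cldn4, Cldn6, Ocln and Dsp passed under the 18 that could be run. These genes entered the test through blastocysts alone, and the filter for probes above background on all arrays leaves them out. Their passing therefore describes the processing and is no separate check of the rise.

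Other genes of the same junctions, taken from lists of textbook members, give the setting in which the 9 stand. These lists, like the members, were chosen with earlier results of these data known. Among 20 other claudins on the array, 11 were tested, 1 rose, 7 fell and 3 did not pass (median log2 -1.11, against -0.25 over all genes). Setting genes below background in 1 group at their bound left the medians of the claudin, tight junction and adherens junction lists as given. Cldn3, a claudin of many epithelia, rose 8.51-fold (log2 3.09). Cldn8 was at least 31.3-fold lower in blastocysts (10.8-fold under normexp correction), where it was below background. Cldn15, also below background there, read 6.22 in the young and 2.08 in the climacteric ooplasts. It was at least 55.4-fold lower in blastocysts than in the climacteric ooplast array and at least 979-fold lower than in the young. Against the mean level of the ooplast arrays, which lie far apart, the bound was 233-fold (76.1-fold under normexp correction). The falls of Cldnd1 (-2.04) and Cldn5 (-1.92) were each lost on leaving out single arrays, with adjusted p up to 0.153 and 0.220.

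Of 32 other tight junction and polarity genes, 30 were tested, 8 rose, 14 fell and 8 did not pass (median -0.64). The largest fitted rises, which for genes below background in ooplasts are not measured sizes, were those of Prkcz, the atypical protein kinase C zeta (log2 8.48, from 7.65 to 8.80 over the settings, with rises of 2.84 and 5.45 on its other probes), Tjp3, which encodes ZO-3 (at least 61.5-fold, 27.0 under normexp), Jam2 (5.49, its other probe below background throughout) and the adhesion receptor gene Cxadr (at least 3.78-fold, 2.10 under normexp). The other Cxadr probes were above background on no array. Cgnl1, a junction scaffold gene measured on all 6 arrays and picked out after its value was seen, rose 9.17-fold (log2 3.20). The largest fitted falls were those of the polarity genes Pard6g (-5.92, from -6.18 to -5.10) and Pard3 (-5.22, from -5.70 to -4.59), of Jam3 (-4.76, from -5.80 to -3.64) and of the scaffold gene Magi2 (-4.53, from -5.45 to -2.99). Of the other Pard3 probes above background on every array, 1 fell (-1.13, adjusted p = 0.0101) and 1 read -0.62 (adjusted p = 0.101). Jam3 was above background on 3 and Magi2 on 2 of the 4 blastocyst arrays.

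Of 30 other adherens junction genes, 27 were tested, 8 rose, 13 fell and 6 did not pass (median -0.67). Besides Cdh1, other cadherins went both ways. Cdh11 rose (8.37, from 6.49 to 9.63 over the settings, above background on 1 ooplast array). Of its other probes, 1 was above background on no array and 1 only on 1 blastocyst array. Cdh2, which encodes N-cadherin, was at least 18.0-fold lower (7.13 under normexp). Cdh4, which encodes R-cadherin, fell (-8.18, from -9.10 to -6.13, above background on 1 blastocyst array, and -1.07 on another probe). The adhesion molecule gene Epcam was at least 13.3-fold higher (5.90 under normexp), and Nectin2 (3.95, from 2.79 to 4.19) and Nectin1 (2.89, from 2.27 to 3.50), whose products bind across the junction, rose. Ctnnbip1, an inhibitor of beta-catenin, fell (-4.56), as did Lmo7 (-3.87, from -4.27 to -3.01), for which another probe, below background in ooplasts, read 1.25 higher (adjusted p = 0.0650). The rise called for Cdh5 has no bound, since its blastocyst level lay below the ooplast background limit.

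Of 17 other desmosome genes, 11 were tested, 6 rose, 4 fell and 1 did not pass (median 0.73, or 0.37 with genes below background in 1 group at their bound). Pkp2 (4.54) and Pkp3 (3.28, from 2.40 to 3.44), plakophilins that bind desmoplakin, rose, as did Perp (2.99) and Jup, which encodes plakoglobin (at least 1.21-fold). Jup read -0.20 on the first climacteric blastocyst array and -2.55 to -2.20 on the others, and its call was lost under normexp correction (adjusted p = 0.711) and without the climacteric ooplast array (0.129), over a range from 0.00310. Pkp1 was at least 7.44-fold lower (3.78 under normexp), and Dsg1a (-3.06, from -3.49 to -1.99, above background on 1 blastocyst array), Pkp4 (-1.61, and -3.75 on its other probe) and Cdsn (-1.03, call lost in 7 of 19 settings with adjusted p up to 0.135) fell.

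Gap junction genes, which encode channels between cells and not seals, were 22 on the array and 12 tested, of which 3 rose, 6 fell and 3 did not pass (median -0.56, or 0 with genes below background in 1 group at their bound, or at 0 where they have none). Gja1, a connexin gene of many tissues, was at least 31.9-fold higher (13.8 under normexp), and Gjb5 rose (6.91, from 5.50 to 7.43, above background on 1 ooplast array). Gjb2 (-6.85, from -7.80 to -4.49, above background on 1 blastocyst array), Gjc1 (-4.55, from -5.30 to -3.06, above on 2), Gja4 (-4.17) and Gjd3 (-1.00, call lost in 5 of 19 settings) fell. The fall called for Gjb1 has no direction, since that probe was below background in ooplasts. None of the genes of these lists was called for age in blastocysts.

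**Figure D5:**
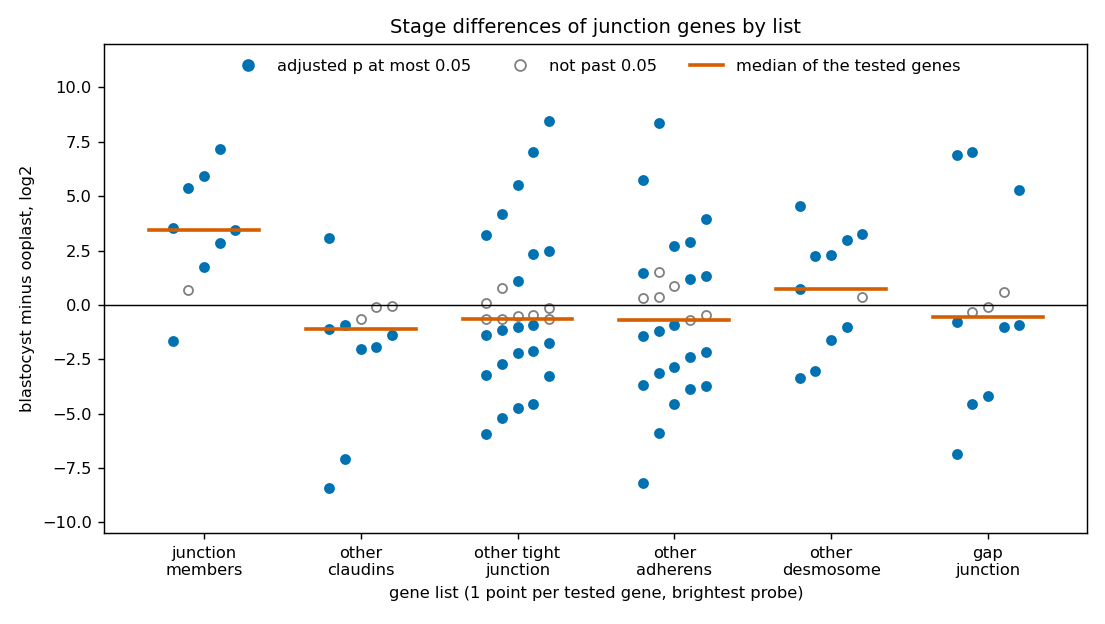
Fitted difference between blastocysts and ooplasts (y axis, log2) for every tested gene of the 9 members and of the 5 lists of other junction genes, by its brightest probe, filled where the adjusted p was at most 0.05, with an orange line at the median. Fitted values of genes below background in 1 group are drawn as fitted, not as bounds. Members and lists were chosen with earlier results of these data known. The 9 members had a median of 3.45, or 2.78 with such genes at their bound, and the other desmosome genes had 0.73, or 0.37.

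By the likeness of their levels over the 6 arrays (Pearson r, with 13188 genes compared, given as a description), the genes nearest to each member were Apom and H2ac1 for Cdh1, Rab8b and Phrf1 for Cldn4, Ndufaf3 and Rev1 for Cldn6, Dolpp1 for Cldn7, Eif2b4 and Tctn3 for Ocln, Ide and Prkrip1 for F11r, Gstm4 and Plekhj1 for Tjp1, Uspl1 and Ccdc174 for Dsp, and Maea and H2bc4 for Dsc2. The points fall into an ooplast and a blastocyst cluster, and Cdh1, Cldn4, Cldn7, Ocln, F11r and Dsp each reached an r of at least 0.95 with 2448 to 3155 genes. Cldn6 did so with 345, Tjp1 with 45 and Dsc2 with 8.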

How the data were processed

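Each array's deposited file is the output of Agilent Feature Extraction (9.5, according to the submitters' processing notes), with a spot intensity and a probe position on mm8, per the file headers. The log2 values that the authors deposited in a value table were used as an alternative. That table ranks probes as the scanner signals do (Spearman at least 0.99996). Its column medians were 6.36 to 6.40, on the arrays' own direction. Background subtraction had been applied to the processed signal.

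Levels were computed as log2 of the processed intensity relative to its array's 75th percentile. Control spots were dropped, and so were outlier spots unless every spot of their probe was flagged. A probe with a single spot, as every member probe but that of Cdh1 is, thus kept it even if flagged. Saturated spots were kept (at most 13 per array), and spots of a probe averaged. A gene stood for its probe with the highest mean. RefSeq (GRCm38.p6) gave the promoter windows and the names: 24375 probes were named by accession, 6301 by current symbol, 2426 by synonym and 8072 by the file's name. Exon and UTR positions on mm8 were not analysed here.

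Stage was tested with limma 3.58.1 in R 4.3.3 on 6 arrays with age as a term, for probes well above background on every ooplast or every blastocyst array. Age was tested on the 4 blastocyst arrays, with Benjamini-Hochberg adjustment over all tested probes and a threshold of 0.05. The scripts were tested on simulated data. The number of arrays limits the precision.

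The members and lists were chosen with earlier results of these data known. Named genes are the 9 members with every probe, the 4 largest called rises and falls per list, those called for age, and the 2 genes most like each member. A few genes that this rule names are not reported here. Alternatives covered scaling, background correction (normexp, offset 50), filters, left-out arrays, slide and the replicate number as a block; the removal of both arrays with macrophage signal was added after seeing the data. Over 2 pairs, same-numbered blastocyst arrays deviated together with r = 0.14, too few pairs to show pairing beyond the slide they share.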

Additional observations from a re-analysis of the deposited data

Results flagged for a closer look

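The 3′ Dsc2 probe (A_52_P252931) had 1 blastocyst array apart from the rest. The first climacteric blastocyst array read -3.00, while the other 3 read -2.55 to -2.49, and its gap to the nearest was 0.883 of the whole range of the 4 arrays. Chance marks about 1 in 20 groups of 4 in this way, and 12 member probes were examined. This is the same array that stood high for Cldn6 and the brighter Tjp1 probe.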

How the results depend on the processing

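Of 15474 probes called for stage, the count was 29232 with no filter on dim probes and 9781 with only probes above background on all arrays. The count of member probes that rose was 10, and 3 under that stricter filter, which leaves out the probes below background in ooplasts. The count that fell was 1 (Tjp1 A_52_P60338), 3 with no filter, 0 with slide as a block, within slide 1 and on climacteric arrays alone, and ranged from 0 to 1 over the left-out arrays. Under normexp correction the stage difference turned to -0.10 for Tjp1 A_51_P390739 and -0.14 for Dsc2 A_52_P252931, and the bound turned to -0.16 for Tjp1 A_51_P390739 and -0.069 for Dsp A_52_P242544 (log2), so neither then has a fold. The cause was not tested. The scalings moved the median stage difference of all probes from -0.22 to between -0.44 and -0.091. Age called 0 probes under every setting, with the replicate block also (0 probes), which is the same block as slide. Leaving out 1 array turned the uncalled age difference of Cdh1 (-0.021 to 0.49), Ocln A_51_P486150 (-0.52 to 0.14), F11r (-0.28 to 0.35), Dsp A_52_P242544 (-0.20 to 0.51), Dsc2 A_52_P252931 (-0.47 to 0.044) and Dsc2 A_52_P157158 (-0.74 to 0.94). The interaction called 141 probes, but 0 with quantile normalization, 0 on the authors' values, 223 with normexp, 49 with no filter, and 0 to 109 over the left-out arrays. In ooplasts 1 member probe was at least 2-fold apart, but 2 with quantile normalization, 2 with scaling on probes detected on all arrays, 2 on the authors' values and 0 with normexp. The low signal of the ooplast arrays limits folds to bounds for probes below background there.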
